A study of Sus scrofa with 10 samples.

Results

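The microRNA genes on the pig Snowball array are those whose symbol in the array's probe annotation starts with MIR and goes on with a digit or with LET. Of the 13755 genes measured, 189 met this description, and 401 of the 47845 probe sets carried one of their symbols. Each gene was represented by the probe set with the highest mean over the 10 arrays. The symbols that start with LET alone belong to 3 genes that are no microRNAs and were not taken. Another 74 symbols in mouse spelling (Mir) were not taken either, since the symbols were read in capitals as given.

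The arrays came from 5 Hampshire pigs, each with 1 array of non-adherent and 1 array of adherent alveolar macrophages, the phagocytes washed from the air spaces of the lung. Stocks kept frozen were thawed and held overnight in medium with rhCSF-1, the growth factor of macrophages in its recombinant human form. Cells that floated the next day and passed a cytometry gate for high size and granularity make up the non-adherent group (n = 5), whereas no sort is described for the adherent group (n = 5). All 10 samples are labelled untreated, 0 h, although the treatment text of the adherent samples speaks of removing adherent cells and of an LPS stimulation, so what the adherent group holds rests on the title and cell type labels. Arrays of the adherent group belong to a previous series of the same animals, so attachment, the sort and the array series cannot be told apart. Cells of each animal gave 1 array per group. The main test has no term for the animal and takes the 10 arrays as independent. Its p-values measure the spread among the 5 animals within each group, and not that of the paired differences. A fit blocked on the animal is given as an alternative.

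A microRNA is cut from a long primary transcript, often an intron of a protein-coding gene, in steps: the nuclear enzyme DROSHA with its partner DGCR8 frees a hairpin, exportins carry it to the cytoplasm, DICER1 trims it, and an Argonaute protein holds the mature strand that represses target messenger RNAs. In macrophages of mouse and human, MIR155 is known as a microRNA induced by inflammatory signals, and the LET7 family as one that restrains growth genes. The labels describe amplification of total RNA with a kit for whole transcripts, so a probe set for a hairpin may read the primary transcript, the host intron or the hairpin, and not the mature microRNA. All levels below are log2 values, and a level is not an amount of mature microRNA.

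The probe sets that stood for the 189 genes were mostly not of pig origin. By their identifiers, 84 were drawn from cattle hairpins, 37 from human, 19 from pig and 9 from mouse hairpins, and 40 were the array's own models of pig transcripts. For 68 genes no pig hairpin and no pig model was among the probe sets. The identifier named another microRNA than the symbol in 9 of the 401 probe sets, 5 of which represented a gene: MIR128-1, MIR128-2, MIR18, MIR199B and MIR423. The values of these 5 genes are therefore those of the probe set, with the gene uncertain.

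Most microRNA genes read low. The array medians over all probe sets lay between 4.97 and 5.09. The median microRNA gene had a mean level of 4.73, with quartiles of 3.34 and 6.49, against a median of 6.22 over all 13755 genes. The mean level was above the array median for 86 microRNA genes (45.5%) and for 72.1% of all genes. On every array 69 microRNA genes were above the median, and 78 were above it on no array. The array carries 69 background probe sets that match no transcript and differ in their content of G and C, and the highest of these marks the brightest unspecific signal. Only 4 of the microRNA genes (2.12%) were above that mark on all 10 arrays, compared with 14.4% of all genes, and 167 were above it on none.

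**Figure D1:**
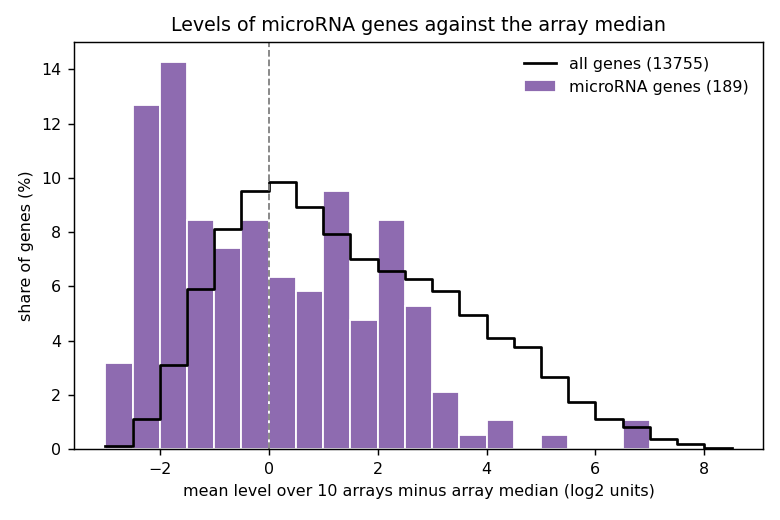
The mean level over 10 arrays, less the array median, is on the x axis in log2 units, and the share of genes in percent on the y axis; bars are the 189 microRNA genes and the black line all 13755 genes. The microRNA genes pile up below the median, and 86 of the 189 lie above it.

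The 4 genes above the background mark on every array were MIR202, MIR499, MIR328 and MIR574. MIR202 averaged 11.56 ± 0.19 in non-adherent and 11.57 ± 0.17 in adherent cells (SD, n = 5 each), read by a pig model of the array. MIR499, which in mammals lies in a myosin gene of heart and slow muscle (MYH7B), averaged 11.38 ± 0.22 and 11.72 ± 0.21 in non-adherent and adherent cells. That reading came from a human hairpin probe set. The cattle hairpin and the pig model of MIR499 averaged 4.14 and 3.26 over the 10 arrays, below the array median, and MYH7B itself averaged 6.04. MIR574 averaged 9.30 ± 0.27 in non-adherent and 8.98 ± 0.13 in adherent cells. None of these 3 passed the test between the groups. The other members of the 10 with the highest mean were MIR155, MIR1343, MIR486, MIR1306, MIR29C and MIR23A, with means between 8.07 and 9.03.

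Among 31 microRNA genes known from macrophages, other myeloid cells or inflammation, 14 were above the array median, and the median level was 4.71. MIR21, abundant in many mammalian cells, averaged 8.16 ± 0.18 in non-adherent and 7.75 ± 0.55 in adherent cells. MIR210, induced by low oxygen in mammals, had a mean of 7.72 over the 10 arrays. By contrast MIR142, MIR146A and MIR126 had means of 4.23, 3.73 and 3.02. Of 23 genes known for other tissues, such as muscle, liver, neurons and epithelium, 7 were above the array median, with a median level of 4.46. The liver microRNA MIR122 averaged 3.38 and the neuronal MIR124A-2 averaged 3.17. Within the myeloid list 1 gene was higher and 1 lower in non-adherent cells, MIRLET7C and MIRLET7I, where 6.72% of all genes were higher and 9.78% lower by limma's test, and the median log2 difference was -0.16. In the list of other tissues 2 were higher, MIR9-2 and MIR206, none was lower, and the median difference was 0.0029. MIR133B, the neighbour of MIR206, was not on that list and was also higher (0.39, limma's adjusted p 0.045). Over all genes the median difference was 0.0076.

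Between the groups, 17 of the 189 microRNA genes passed limma's test at a Benjamini-Hochberg adjusted p below 0.05 over all 13755 genes, or 8.99%, beside 16.5% of all genes. In non-adherent cells 8 were higher, beside 6.72% of all genes, and 9 were lower, beside 9.78%. At an unadjusted p below 0.05 there were 40, beside 4330 of all 13755 genes. The median log2 difference, non-adherent minus adherent, was -0.0094 over the microRNA genes, and the range ran from -1.21 to 1.08. The groups did not overlap in 5 genes, or 2.65%, beside 15% of all genes. By level, 3 of 73 members with a mean below 4 passed, where 4.49% of all genes did. Between 4 and 6 it was 5 of 53, where 6.52% of all genes passed, and 7 of 53 with a mean between 6 and 8 passed, where 22.7% of all genes did. Of the 10 members at 8 or more, 2 passed, beside 28.5% of all genes.

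The count of 17 changed with single arrays, and so did the 2270 of all 13755 genes that passed. The microRNA count was 10, 9, 10, 7 and 9 without the non-adherent array of animal 1, 2, 3, 4 and 5 in turn. Over all genes 1638, 1758, 1696, 1852 and 1855 passed then. Leaving out the adherent array of animal 3 or 5 gave 10 and 8 (1723 and 1733 of all genes). Leaving out that of animal 1, 2 or 4 gave 20, 16 and 13 (3067, 2120 and 1864 of all genes). With arrays centred on their median, 6 of 17 calls were higher, and after quantile normalization 7 of 12, against 8 of 17 as deposited. The call held without any 1 array in 4 genes: MIR107, MIRLET7I, MIR1306 and MIR378B.

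**Figure D2:**
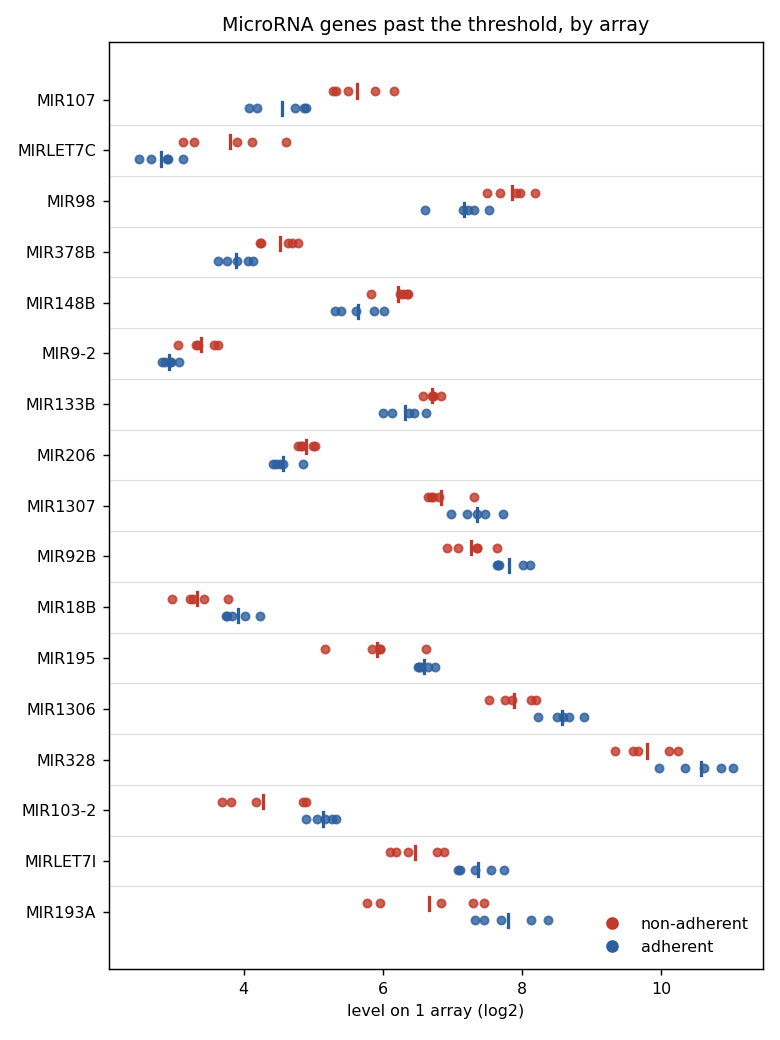
Levels (log2, x axis) of the 17 microRNA genes past the threshold, 1 dot per array, non-adherent above adherent in each row, with a bar at the group mean. Rows run from the largest positive difference, MIR107, to the largest negative one, MIR193A.

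MIR107 had the lowest p and the largest positive difference. Its relatives MIR103-1 and MIR103-2 have nearly the same mature sequence in mammals, and all lie in genes of pantothenate kinases, which start coenzyme A synthesis. MIR107 read 5.88, 6.16, 5.29, 5.50 and 5.33 in the non-adherent cells of animals 1 to 5, against 4.07, 4.90, 4.19, 4.75 and 4.86 in their adherent cells. Every non-adherent value was above every adherent one. The log2 difference was 1.08 ± 0.22 (SE), a fold of 2.11, with limma's adjusted p of 0.0069. Its mean level was only 0.077 above the array median, and a cattle hairpin was its only probe set. The host gene PANK1 did not move with it, at a difference of -0.018 and an adjusted p of 0.931.

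The LET7 family held calls in both directions. MIRLET7I read 6.88, 6.79, 6.36, 6.20 and 6.10 in non-adherent cells, against 7.74, 7.33, 7.09, 7.11 and 7.56 in adherent cells of animals 1 to 5. All 5 animals were lower in non-adherent cells and the groups did not overlap (log2 difference -0.90 ± 0.18 SE, limma's adjusted p 0.0074). MIRLET7C read 3.91, 4.61, 3.29, 4.12 and 3.13 in non-adherent cells, against 2.50, 2.90, 2.66, 3.13 and 2.91 in adherent cells. All 5 animals were higher here (0.99 ± 0.26 SE, adjusted p 0.024 in limma), but the groups all but touched at 3.13 and every value was below the array median. Its call was lost without the non-adherent array of animal 1 or 4 or the adherent array of animal 3, at an adjusted p of at most 0.056.

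MIR98, a further member of the LET7 family, lies in an intron of HUWE1, a ubiquitin ligase, and both rose. MIR98 read 7.92, 8.19, 7.69, 7.50 and 7.97 in non-adherent cells, against 6.60, 7.52, 7.23, 7.16 and 7.32 in adherent cells of animals 1 to 5. The difference was 0.69 ± 0.18 (SE, limma's adjusted p 0.023), higher in 5 of 5 animals, with 1 non-adherent value below the highest adherent one. HUWE1 read 10.59, 10.51, 10.52, 10.52 and 10.68 in non-adherent cells, against 9.19, 10.09, 9.65, 9.79 and 9.95 in adherent cells (0.83 ± 0.15 SE, adjusted p 0.0039 in limma). Over the 10 arrays the values of MIR98 and HUWE1 followed each other (Pearson r 0.918, Spearman rho 0.842), and r was 0.846 over the 9 arrays other than the adherent array of animal 1. For deviations from the group means, r was 0.779. All 3 probe sets of MIR98 had a positive difference. Of the other LET7 genes, MIRLET7D, MIRLET7E and MIRLET7G had differences of -0.16, -0.10 and -0.01, and none passed. The MIR98 call was lost without the non-adherent array of animal 1, 2 or 5, with an adjusted p of at most 0.055.

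MIR1306 lies within DGCR8, the gene of DROSHA's partner. It read 7.85, 8.20, 7.53, 7.75 and 8.13 in non-adherent cells, against 8.89, 8.60, 8.23, 8.51 and 8.68 in adherent cells of animals 1 to 5. Every non-adherent value was below every adherent one, with a difference of -0.69 ± 0.15 (SE, limma's adjusted p 0.012). The probe set was a mouse hairpin, and the cattle hairpin and pig model of the same gene had differences of -0.12 and -0.80. DGCR8 itself was at 7.57 ± 0.34 in non-adherent and 7.52 ± 0.36 in adherent cells, a difference of 0.05 (adjusted p 0.886).

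MIR378B, of the MIR378 family, read 4.78, 4.70, 4.25, 4.24 and 4.64 in non-adherent cells, against 3.63, 3.76, 4.13, 3.90 and 4.06 in adherent cells. The groups did not overlap, and the difference was 0.62 ± 0.14 (SE, adjusted p 0.012 in limma), at a level below the array median on all 10 arrays. Its host RGS3, a regulator of G-protein signalling, went the other way, at 5.70 ± 0.12 in non-adherent and 6.10 ± 0.13 in adherent cells (difference -0.40 ± 0.09 SE, limma's adjusted p 0.014). Across the 10 arrays their r was -0.866, and -0.520 for deviations from the group means. RGS3 had a difference of only -0.095 (adjusted p 0.382) in the mean of all its probe sets.

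The other 4 genes that rose were smaller changes. MIR148B was at 6.22 ± 0.22 in non-adherent and 5.65 ± 0.30 in adherent cells, a difference of 0.57 ± 0.15 (SE, limma's adjusted p 0.029). MIR9-2, a neuronal microRNA in mammals, was at 3.38 ± 0.23 and 2.94 ± 0.10 in non-adherent and adherent cells, all values far below the array median (difference 0.45, adjusted p 0.021). The call of MIR9-2 was lost without the non-adherent array of animal 2 (adjusted p 0.051). MIR133B and MIR206, which share a muscle-specific cluster in mammals, had differences of 0.39 ± 0.12 and 0.33 ± 0.10 (SE), with adjusted p of 0.045 and 0.046. In the fit blocked on the animal their adjusted p in limma was 0.057 and 0.082, past the threshold no longer.

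The genes that fell included MIR328, one of the brightest. MIR328 read 10.11, 10.25, 9.34, 9.60 and 9.67 in non-adherent cells, against 10.86, 10.35, 10.62, 9.97 and 11.04 in adherent cells of animals 1 to 5. All 5 animals were lower in non-adherent cells, though the groups overlapped (difference -0.77 ± 0.22 SE, limma's adjusted p 0.037). MIR193A had the largest negative difference of those called, at 6.67 ± 0.76 in non-adherent and 7.80 ± 0.45 in adherent cells (-1.13 ± 0.34 SE, adjusted p 0.045). MIR92B, of the family of the growth-promoting MIR17-92 cluster, was at 7.27 ± 0.28 in non-adherent and 7.82 ± 0.23 in adherent cells (-0.55 ± 0.15 SE, adjusted p 0.031). MIR1307 had a difference of -0.52 ± 0.16 (SE, adjusted p 0.049). MIR195, a relative of MIR15 and MIR16 that restrain the cell cycle, had a difference of -0.68 ± 0.21 (SE, adjusted p 0.048, or 0.063 with animals as blocks). MIR103-2 and MIR18B also fell, and their probe sets are taken up below.

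Array background differed between the groups. The background probe sets with 20 to 25 G or C bases averaged 7.15 ± 0.08 on non-adherent and 7.79 ± 0.16 on adherent arrays (SD, n = 5 each). The groups did not overlap (difference -0.64, exact permutation test, two-sided p = 0.0079, the smallest that 252 arrangements allow). Like the main test, the permutation test took the 10 arrays as independent and did not keep the arrays of an animal together. The set with 15 to 19 G or C bases, at levels near the array median, averaged 4.58 ± 0.05 on non-adherent and 5.06 ± 0.14 on adherent arrays. Its groups did not overlap either (difference -0.48, exact p = 0.0079). The set with 10 to 14 G or C bases differed by -0.105 (exact p = 0.016) and that with 3 to 9 by -0.013 (exact p = 0.508). Of the 9 genes that fell, MIR328 alone was above the highest background probe set on all 10 arrays, MIR1306 was on 6, and the other 7 were on none. None of the 8 genes that rose was above it on all 10 arrays, and MIR98, the brightest of them, had a mean of 7.51. The hybridization controls, bacterial transcripts added before hybridization, were higher on the non-adherent arrays, at 10.52 ± 0.20 against 9.14 ± 0.08 on the adherent ones. With the high-GC background as a covariate in limma, 0 microRNA genes and 4 of all 13755 genes passed, and 13 microRNA genes had an unadjusted p below 0.05. Since this background hardly varied within a group and did not overlap between groups, that model leaves little to separate them, and the part of the background in the calls was not tested.

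Probe sets of 1 gene often disagreed in the sign of the difference. Of the 189 genes, 134 had several probe sets, and in 62 of these every probe set had a difference of the same sign. That count was not made over all genes. In mean level, probe sets lay over 2 apart in 25.4% of the 134, beside 43.4% of all genes with several. Among the 17 genes called, 12 had several, and in 4 of these all agreed in sign: MIR98, MIR148B, MIR92B and MIR1306. Taking the mean of all probe sets of a gene, 10 microRNA genes passed (5 higher and 5 lower), 8 of them among the 17. Of all 13755 genes 2159 passed in that setting. With only pig hairpins and pig models for the microRNA genes, 5 of 121 passed, 1 higher and 4 lower, beside 2262 of all 13687 genes tested. Tested as 47845 separate probe sets, 18 of the 401 passed (4.49%, beside 10.8% of all probe sets), 10 higher and 8 lower, and none of the 43 pig hairpins did.

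MIR18B was the only gene with probe sets past the threshold in both directions. The cattle hairpin read 3.27, 3.23, 3.78, 2.97 and 3.43 in non-adherent cells, against 4.23, 3.75, 3.76, 3.83 and 4.03 in adherent cells (difference -0.58, limma's adjusted p over all probe sets 0.032). The human hairpin read 4.62, 3.78, 3.91, 3.81 and 3.37 in non-adherent cells, against 3.07, 3.04, 3.09, 3.40 and 3.26 in adherent cells (0.73, adjusted p 0.035). Both probe sets were below the array median, and the mean of the pair differed by 0.07 (adjusted p 0.732). In MIR195 the pig hairpin that represented the gene fell, while the human hairpin was higher in non-adherent cells without overlap, at 6.13 ± 0.19 against 5.53 ± 0.33 in adherent cells (0.60, adjusted p 0.034 over all probe sets). MIR103-2 was represented by a probe set that its identifier marks as antisense, at 4.29 ± 0.57 in non-adherent and 5.14 ± 0.18 in adherent cells (-0.86 ± 0.23 SE, adjusted p 0.030). The other 2 probe sets of MIR103-2 had differences of 0.24 and 0.56. In MIR328 the cattle hairpin alone passed, and its 3 other probe sets lay between -0.23 and 0.17.

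**Figure D3:**
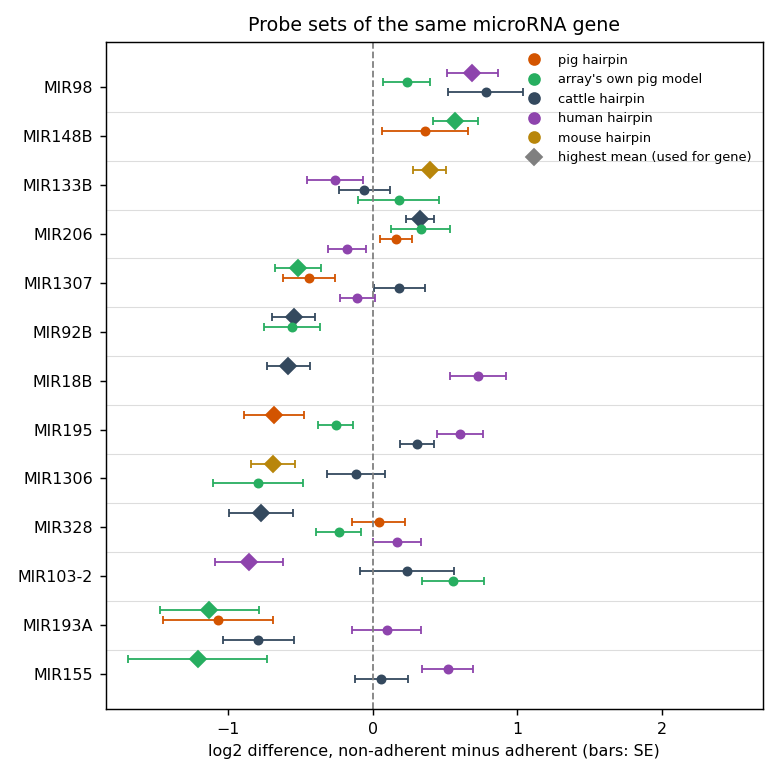
Log2 difference, non-adherent minus adherent (x axis, bars are the SE), for each probe set of the 12 called genes with several and of MIR155, coloured by the origin of the probe set; the diamond is the one with the highest mean, which represents the gene. MIR98, MIR148B, MIR92B and MIR1306 keep to one side of 0, and MIR18B and MIR195 have probe sets far out on both sides.

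MIR155 had the largest negative difference of all 189 genes. It read 9.0, 7.18, 7.97, 8.75 and 9.24 in the non-adherent cells of animals 1 to 5, against 10.51, 8.90, 8.61, 9.55 and 10.64 in their adherent cells. Animals with a high adherent value also had a high non-adherent one, so the groups overlapped although all 5 animals were lower in non-adherent cells. The difference was -1.21 ± 0.48 (SE), with limma's adjusted p of 0.109. Blocking on the animal gave 0.0041. Without any 1 array the unblocked adjusted p lay between 0.072 and 0.219. The reading came from a pig model of the array, above the background mark on 8 arrays. The human and cattle hairpins of MIR155 averaged 3.93 and 3.69 over the 10 arrays, with differences of 0.52 and 0.06. With the animal as a block, 19 microRNA genes passed, beside 18.2% of all genes, and 14 of them are among the 17. Of the 19, 8 were higher (7.85% of all genes were) and 11 lower (10.4% of all genes were). Besides MIR155 the block added MIR212 (-0.54, adjusted p 0.020), MIR32 (-0.86, 0.030), MIR1271 (0.50, 0.019) and MIR31 (0.60, 0.033).

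**Figure D4:**
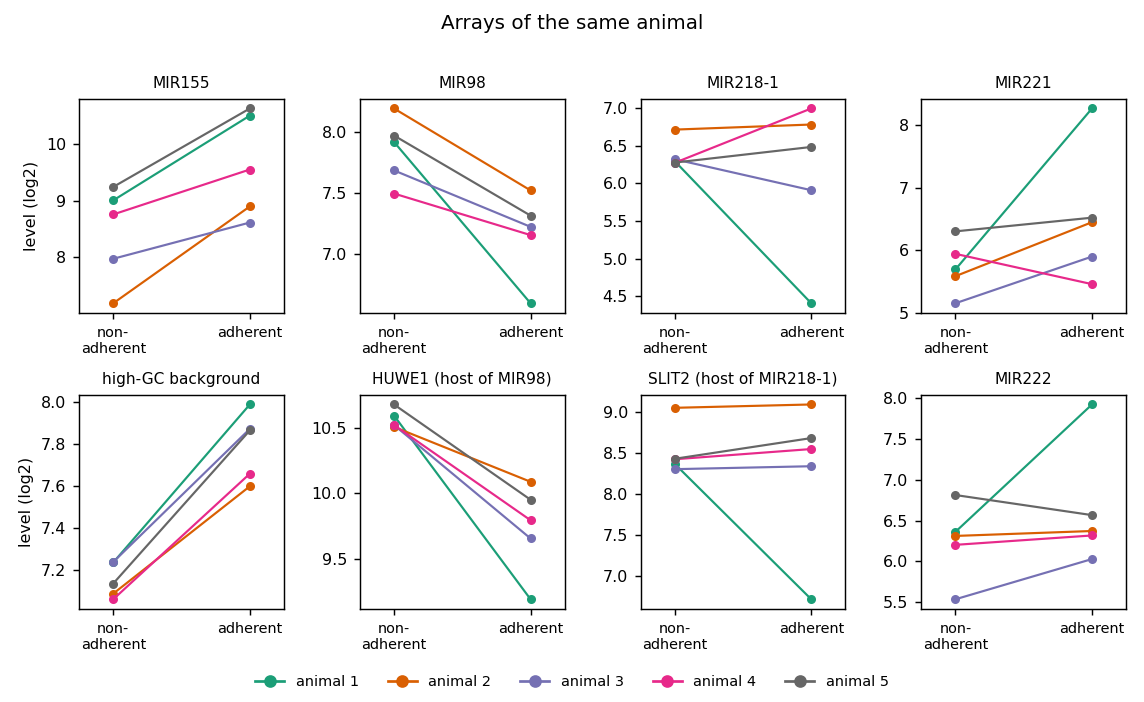
Levels (log2, y axis, a separate scale in each panel) of the 2 arrays of each animal, non-adherent on the left, joined by a line per animal. MIR155 falls to the left in all 5 animals, MIR98 and HUWE1 rise to the left, the high-GC background lies lower on every non-adherent array, and the adherent array of animal 1 stands apart in MIR218-1, SLIT2, MIR221 and MIR222.

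Host genes were looked up by position in the RefSeq annotation of the pig assembly Sscrofa11.1, which gives no strand here. A host is thus any gene that overlaps the microRNA gene, and pairs on opposite strands, which share no primary transcript, could not be set aside. All 189 symbols matched, 15 of them through a synonym, to 186 RefSeq genes: MIR18 and MIR18A, MIR190 and MIR190B, and MIR7 and MIR7-2 each share 1, and are counted as separate members below. By that map 100 microRNA genes lie inside a protein-coding gene, 12 inside a long non-coding RNA gene only and 77 inside no other gene. The array measured 77 pairs of a microRNA gene and its host, with 69 hosts, of which 13 passed the test (18.8%, beside 16.5% of all genes), 5 higher and 8 lower. Differences of members and hosts had the same sign in 37 of 77 pairs, and across pairs Pearson's r was -0.047 and Spearman's rho -0.025. Both partners passed in 2 pairs, MIR98 with HUWE1 and MIR378B with RGS3. Hosts past the threshold with an uncalled member included ACADVL, an enzyme of fatty acid oxidation, at -1.24, while MIR324 inside it differed by 0.41. PANK3 differed by -0.60 and MIR103-1 by -0.29, and DALRD3 by -0.60 with MIR191 and MIR425 at -0.29 and -0.47. R3HDM1 rose by 0.87, and MIR128-1, whose probe set names another microRNA, was at -0.68 (adjusted p 0.094).

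**Figure D5:**
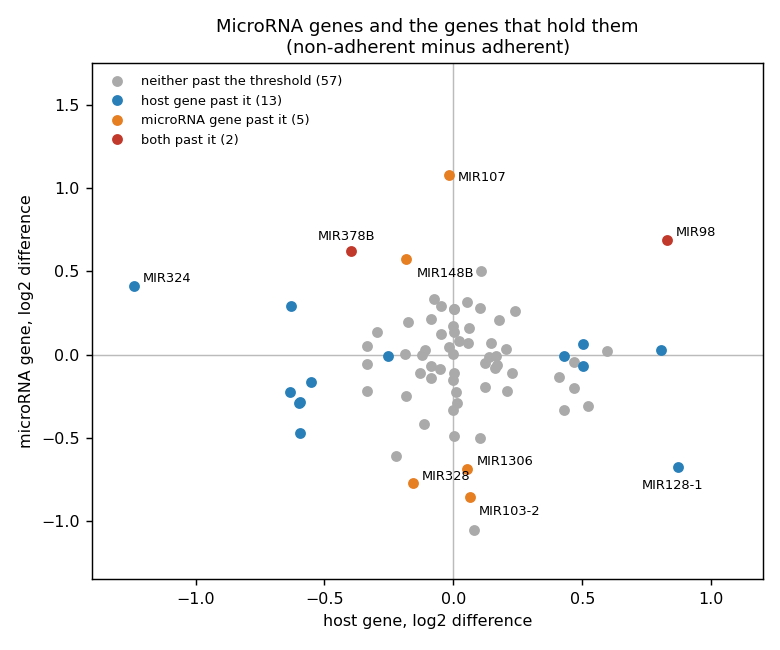
Each dot is 1 of 77 pairs of a microRNA gene (y axis) and the protein-coding gene that overlaps it on either strand (x axis). Both are log2 differences, non-adherent minus adherent, and colours give which partner passed the threshold. The cloud has no slope, and MIR98 is alone among the called pairs at the upper right.

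Another microRNA gene followed its host closely although neither passed. MIR218-1 and SLIT2, a secreted guidance factor whose intron holds it, had an r of 0.938 over the 10 arrays (rho 0.770). MIR218-1 read 6.30, 6.71, 6.32, 6.27 and 6.28 in non-adherent cells, against 4.41, 6.78, 5.91, 7.00 and 6.48 in adherent cells. SLIT2 read 8.37, 9.05, 8.30, 8.42 and 8.43 in non-adherent cells, against 6.72, 9.09, 8.34, 8.55 and 8.68 in adherent cells. The adherent array of animal 1 was lowest in both, and r was 0.672 over the other 9 arrays, below the 0.846 of MIR98 and HUWE1. With the adherent arrays of animals 1 and 4 left out r was 0.889. For deviations from the group means on all 10 arrays it was 0.936, above the 0.779 of MIR98 and HUWE1. Over all 77 pairs of a microRNA gene and its host the median r was -0.059. The adherent array of animal 1 stood apart from its group in 11 of the 189 genes, and no other array in more than 5. Without it MIR107, MIRLET7I, MIR1306, MIR378B, MIRLET7C and MIR98 all passed.

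Neighbours within 10 kb of each other, which mammals often transcribe as 1 unit, gave 43 pairs among 59 members. The differences had the same sign in 21 of the 43 pairs, and r over the 10 arrays ranged from -0.738 to 0.922 with a median of 0.067. The highest r belonged to MIR221 and MIR222, known to act on the cell cycle. MIR221 read 5.69, 5.58, 5.15, 5.94 and 6.30 in non-adherent cells, against 8.27, 6.45, 5.90, 5.45 and 6.52 in adherent cells (difference -0.78, adjusted p 0.255). Without the adherent array of animal 1 the difference of MIR221 was -0.35 and the r of the pair 0.719, and 0.509 with that array and the non-adherent array of animal 3 left out. MIR133B and MIR206 were the only pair of neighbours with both past the threshold. MIR99A, the neighbour of MIRLET7C, was at 5.94 ± 0.56 in non-adherent and 5.43 ± 0.51 in adherent cells, higher in 5 of 5 animals but not past the threshold (adjusted p 0.270).

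Of the 40 measured genes of the microRNA pathway itself, 11 passed (27.5%, beside 16.5% of all genes), 6 higher and 5 lower. Their median level was 8.07, and of all genes at 8 or more 28.5% passed. EIF2C2, the older symbol of AGO2, the Argonaute that cuts its targets, had the lowest p. EIF2C2 read 8.13, 7.93, 8.16, 8.36 and 8.44 in non-adherent cells, against 9.62, 9.06, 9.57, 9.39 and 9.51 in adherent cells of animals 1 to 5. No value overlapped, and the difference was -1.23 ± 0.13 (SE, limma's adjusted p 0.00021). EIF2C4 (AGO4) went the other way, at 6.55 ± 0.32 in non-adherent and 5.82 ± 0.26 in adherent cells (0.74, adjusted p 0.014). EIF2C1 (AGO1) differed by -0.09 and did not pass.

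Both terminal uridylyl transferases, which add uridines to microRNA precursors, rose. ZCCHC11 was at 9.02 ± 0.12 in non-adherent and 8.39 ± 0.25 in adherent cells (0.63, adjusted p 0.0057), and ZCCHC6 was at 9.45 ± 0.09 and 9.14 ± 0.08 in non-adherent and adherent cells (0.31, adjusted p 0.020). LIN28B, which blocks LET7 maturation, differed by 0.26 (adjusted p 0.038) at levels below the array median. ZC3H12A, a ribonuclease that restrains inflammation and cuts microRNA precursors, fell to 6.42 ± 0.19 in non-adherent cells, against 7.26 ± 0.38 in adherent cells (-0.83, adjusted p 0.0081). RAN, the GTPase of nuclear export, differed by -0.46 (adjusted p 0.013), and NCBP1 of the cap-binding complex by 0.56 (adjusted p 0.0026). PNPT1 rose by 0.50 (adjusted p 0.045), and GEMIN4 and FMR1 had differences of -0.43 and -0.37 (adjusted p 0.035 and 0.037). In the fit blocked on the animal, FMR1 and LIN28B had an adjusted p of 0.062 and 0.068. The core enzymes did not pass: DROSHA differed by 0.05 at a mean level of 3.86, DGCR8 by 0.05 and DICER1 by -0.22 (adjusted p 0.532). Without the adherent array of animal 1 the difference of DICER1 was -0.43 (adjusted p 0.065). XPO5, the exportin of the hairpins, was not measured under that symbol. The count of 11 was 7 without the non-adherent array of animal 1, or the adherent array of animal 3 or 5. Over all genes 1638, 1723 and 1733 passed then, beside 2270 with all arrays.

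Of 10 measured markers of alveolar macrophages, 9 were above the array median, MRC1 and CD14 among them, and FABP4 was not. Above it were also 72.1% of all genes, 8 of 10 T and natural killer cell markers and 6 of 6 endothelial and smooth muscle markers. That count therefore does not set macrophages apart from other cells. The median level was 10.23 for the macrophage markers, and between 4.44 and 8.61 for the lists of the other cell types. Between the groups 3 of the 10 genes on the macrophage list were higher in non-adherent cells, CD163 (1.51), MSR1 (0.96) and PTPRC (0.79). PPARG was lower (-0.64), where 6.72% of all genes were higher and 9.78% lower in limma's test. CD163 and MSR1 were higher in 4 of 5 animals, and their groups overlapped. PTPRC was higher in 5 of 5 without overlap, but it marks leukocytes in general and not macrophages alone. Markers of dendritic cells were higher in non-adherent cells in 6 of 7 genes, beside 6.72% of all genes. Their summed linear level was 1297 to 5848 in non-adherent against 419 to 488 in adherent cells. Of 8 epithelial markers EPCAM alone fell, beside 9.78% of all genes. The summed level of the epithelial markers was 546 to 857 in non-adherent against 981 to 2012 in adherent cells. In neither sum did the groups overlap, but the epithelial one rested on EPCAM: the summed levels of the other 7 markers overlapped between the groups, and none of them passed. The part of these cells in the differences of the microRNA genes was not tested. None of the T, natural killer, B, neutrophil, erythroid, endothelial and smooth muscle markers passed the test without the block, and the B cell marker MS4A1 did with it (0.52, adjusted p 0.035). The ranges of the summed levels of these cell types overlapped between the groups. In such bulk samples fewer cells of a type and less RNA per cell cannot be told apart.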

How the data were processed

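RNA of 10 samples was hybridized to Affymetrix Snowball pig arrays. The values are log2 signals as deposited, made by RMA, with Partek also named, per the submitters' processing notes, which give no versions. No source used here states whether both groups were normalized in 1 run. Symbols came from the platform annotation, and 26426 probe sets carried 1 symbol. The probe set with the highest mean represented a gene. limma 3.58.1 in R 4.3.3 (lmFit, eBayes) compared 5 non-adherent with 5 adherent arrays over 13755 genes, two-sided, and p-values were adjusted by Benjamini-Hochberg (threshold 0.05). The number of arrays limits the precision.

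The labels give both arrays of an animal the same number, and the pairing rests on these labels. Deviations from the group means correlated between the paired arrays at 0.116, 0.220, 0.398, 0.364 and 0.394 in animals 1 to 5. Correlations between arrays of different animals are not given here for comparison. Blocking on the animal is an alternative. Others were centring, quantile normalization, a filter on dim genes, averaging the probe sets of a gene, another variance model, array weights, all probe sets and leaving out arrays. The array background as a covariate, other choices of probe sets and the block without animal 1 were added after seeing the data. limma was tested on simulated data.

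Genes named were all past the threshold, the 10 with the highest mean, listed microRNAs of myeloid and other tissues, pathway genes (those past the threshold, up to 6 a direction, and DROSHA, DGCR8, XPO5, DICER1 and AGO2), and hosts and neighbours of these. MIR32, MIR1271 and MIR31, past the threshold with the block, and the pairs with the highest correlation were named after their values were seen. Members and lists were chosen with earlier results of these data known. Sequences of the probes and hairpins were not used here. Summed marker levels are sums of values taken out of log2.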

Additional observations from a re-analysis of the deposited data

Results flagged for a closer look

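In 92 groups of 5 arrays, for the genes described, 8 held 1 array whose gap to the next was above Dixon's critical value, and chance flags about 1 in 20 such groups. Among microRNA genes, MIR1307 was at 7.31 in the non-adherent cells of animal 1, with the other 4 between 6.65 and 6.80. MIR1343 was at 8.84 in the non-adherent cells of animal 2, with the others between 8.15 and 8.29. MIR148B was at 5.84 in the non-adherent cells of animal 3, with the others between 6.25 and 6.36. MIR218-1 was at 6.71 and its host SLIT2 at 9.05 in the non-adherent cells of animal 2, where the others lay between 6.27 and 6.32 for MIR218-1 and between 8.30 and 8.43 for SLIT2. MIR222 was at 7.92 in the adherent cells of animal 1, with the others between 6.03 and 6.57. MIR99A was at 4.55 in the same array, with the others between 5.49 and 5.76. Among pathway genes, DROSHA was at 4.13 in the adherent cells of animal 4, with the others between 3.72 and 3.82.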

How the results depend on the processing

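Of the 17 microRNA genes called, 13 lost the call without at least 1 array, 2 kept it without any 1 animal (MIR107 and MIRLET7I), and 14 kept it with the animal as a replicate block. The count was 10 after averaging the probe sets of each gene (2159 of all genes passed) and 27 with array weights (3151 of all genes). It was 0 with the background covariate (4 of all genes) and 5 with pig probe sets only (2262 of all genes). With the block without animal 1 it was 33 (3495 of all genes), and without 1 array or animal 6 to 20 (1119 to 3067 of all genes). The count of pathway genes was 11 as reported, 0 with the background covariate and 4 to 12 without 1 array or animal. Members above the array median were 44 of 121 with pig probe sets only. The block gave 10 pathway genes. It ended the calls of MIR133B, MIR206, MIR195, FMR1, LIN28B and WDR82. It added those of MIR155, MIR212, MIR32, MIR1271, MIR31, SND1 and the B cell marker MS4A1, and changed no other call of a gene named. The median difference of the microRNA genes stayed between -0.037 and 0.016 in all alternatives run. Reversed signs of called genes, none of them past the threshold then, came in 3 settings. With the mean of probe sets MIR18B was at 0.072, FMR1 at 0.039 and WDR82 at 0.032. With pig probe sets only MIR103-2 was at 0.56 and MIR328 at 0.041. With the background covariate MIR1307 was at 0.37, MIR18B at 0.26, MIR328 at 0.18, FMR1 at 0.083, MIR98 at -0.11, MIRLET7C at -0.14 and PNPT1 at -0.37. The causes were not tested, save that fewer probe sets enter with pig probe sets only. The brightest background probe sets read about 8, and which calls lie near the background of their own probes was not tested.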

Other observations

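The array also carries 1446 hairpin probe sets with no gene symbol, outside the members described. Of these 29 were higher and 29 lower in non-adherent cells (4.01% past the threshold in limma, beside 10.8% of all probe sets), and 470 were above the array median. The probe set mmu-mir-2138_st read 11.65, 11.34, 10.89, 10.57 and 10.32 in the non-adherent cells of animals 1 to 5, against 12.68, 12.80, 12.43, 12.49 and 12.58 in their adherent cells (difference -1.64, adjusted p 0.0014). Its groups did not overlap and all 10 values were above the highest background probe set.

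Among these probe sets, 22 name a listed myeloid microRNA that has no symbol in the annotation, with 9 names in all, and 7 were above the array median. The 3 hairpins of MIR223, a microRNA of neutrophils and macrophages in mammals, averaged 5.64 (mouse), 5.12 (human) and 2.89 (cattle) over the 10 arrays, and none passed. Past the threshold, hsa-mir-503_st fell to 4.34 ± 0.14 in non-adherent cells, against 5.00 ± 0.35 in adherent cells (adjusted p 0.020), while mmu-mir-503_st differed by 0.29 and ssc-mir-503_st by -0.19, neither past it. For MIR424, its neighbour in mammals, the cattle hairpin fell (3.56 ± 0.12 in non-adherent and 4.05 ± 0.28 in adherent cells) and the human hairpin rose (2.49 ± 0.06 and 2.25 ± 0.03 in non-adherent and adherent cells), both below the array median.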
